A study of Homo sapiens with 6 samples.

Results

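The genes of AP-1 and of the immediate early response described here are FOS, FOSL1, FOSL2, JUN, JUNB, JUND, EGR1, MYC, IER2 and IER3. They were chosen by gene symbol alone, and each of the 10 symbols had 1 row among the 30230 genes counted. All libraries were made from polyadenylated RNA of A549, a line of human lung adenocarcinoma that the labels call non-small-cell lung cancer cells. In 3 libraries the cells were negative controls (NC), which by the study's methods received a scrambled siRNA, although their treatment label speaks of a control plasmid. In the other 3 libraries FSCN1, which codes for fascin, a protein that bundles actin filaments, had been silenced (siFSCN1), and the study's text names 1 siRNA for them. The comparison asks how these genes stood after FSCN1 silencing, and its p-values measure only the spread between these libraries, which the study calls biological replicates without saying whether each came from its own culture.

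AP-1 is a dimeric transcription factor made of one JUN protein and one FOS or ATF protein, or of JUN proteins alone. Several of its genes, with EGR1, MYC and the IER genes, are switched on within minutes when serum, growth factors or stress reach a cell. This runs through ERK, JNK and p38 kinases and the promoter-bound factors SRF, ELK1 and CREB, and most of these mRNAs decay quickly. In growing carcinoma cells FOSL1, FOSL2, JUND and MYC are also made steadily, and AP-1 with FOSL1 is known for driving genes of migration and invasion.

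FSCN1 silencing did not move these genes together. FOSL1 fell to 28.1% of its NC level, JUN, JUND and FOSL2 fell to between 58.6% and 69.2%, while FOS rose 2.17-fold and IER2 1.25-fold. MYC fell to 88.4% and IER3 to 91.8% under the main scaling, both with changes of sign or loss of the call under others, and neither JUNB nor EGR1 passed the test. All 10 genes were expressed well enough to be tested among 17076 genes. With edgeR's quasi-likelihood test and Benjamini-Hochberg adjustment over all genes, 8 of the 10 had an adjusted p under 0.05, against 68.3% of all genes tested. Of these, 2 were higher in siFSCN1, against 35.1% of all genes, and 6 lower, against 33.2%. At least 2-fold changes were 1 higher (FOS), against 11.7% of all genes, and 1 lower (FOSL1), against 4.85%. Under the main scaling the levels of the groups did not overlap for 9 of the 10 genes, where 71.3% of all genes did not overlap. In the deposited FPKM (fragments scaled by length and depth) the groups overlapped for MYC, IER3 and EGR1 as well as for JUNB. The median log2 fold change was -0.36 over the 10 genes and 0.031 over all genes tested. The latter is not matched for abundance. Genes of like abundance (20 equal bins) had medians of 0.24 for FOS, 0.33 for EGR1 and -0.24 to -0.13 for the others. In bulk RNA such as this, fewer cells with a transcript and less of it per cell cannot be told apart.

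The libraries held 27967301 to 36560919 counts. FSCN1 fell from 214 CPM ± 4.67 to 14.4 CPM ± 3.37 (SD, n = 3 each), a log2 fold change of -3.89 with an edgeR adjusted p of 8.1e-16, where CPM is the count scaled to library size by TMM, which corrects for the make-up of a library. The 5 epithelial markers EPCAM, KRT8, KRT18, KRT19 and CDH1 each reached 1 FPKM, with sums of 2607 to 3001 FPKM in NC and 1526 to 1854 FPKM in siFSCN1. The lower sum was that of the keratin genes, as KRT8, KRT18 and KRT19 fell by 0.88, 0.99 and 1.10 on the log2 scale, while CDH1 rose by 1.35 and EPCAM by 0.29. Of 7 markers of the alveolar type II cells from which such tumours can arise, 5 had a row and only ABCA3 reached 1 FPKM. None of 11 markers of fibroblasts, endothelium and blood reached 1 FPKM, and their sums were 0.77 to 1.01 FPKM in NC and 0.43 to 0.73 FPKM in siFSCN1.

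Promoters were available for 7 of the 10 genes in RefSeq sequences of 250 bases before to 50 bases after the start of transcription, and those of FOSL1, MYC and IER3 were not analysed here. The sequences of FOS and IER2, which rose, and of JUN and JUND, which fell, are shown 5′ to 3′ on the gene's strand up to 30 bases past the start, so that the elements of rising and falling genes can be read side by side. Capitals mark every match on either strand. The motifs searched were the AP-1 site TGANTCA, the cAMP response element (CRE) TGACGTCA with its looser form TGACNTCA and its half-site TGACG, the CArG box of SRF, GCGNGGGCG for EGR1, the E-box CACGTG of MYC, and the TATA box as TATAAA. They lie at chr14:75278578-75278857 (plus strand), chr19:13150161-13150440 (plus strand), chr1:58784018-58784297 (minus strand) and chr19:18281593-18281872 (minus strand) of GRCh38.p14.
FOS: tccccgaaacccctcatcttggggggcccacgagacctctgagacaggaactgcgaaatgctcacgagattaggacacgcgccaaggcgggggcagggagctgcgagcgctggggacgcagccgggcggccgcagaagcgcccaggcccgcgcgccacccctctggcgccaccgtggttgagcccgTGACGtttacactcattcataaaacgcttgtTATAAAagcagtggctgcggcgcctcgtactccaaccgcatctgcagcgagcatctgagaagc
IER2: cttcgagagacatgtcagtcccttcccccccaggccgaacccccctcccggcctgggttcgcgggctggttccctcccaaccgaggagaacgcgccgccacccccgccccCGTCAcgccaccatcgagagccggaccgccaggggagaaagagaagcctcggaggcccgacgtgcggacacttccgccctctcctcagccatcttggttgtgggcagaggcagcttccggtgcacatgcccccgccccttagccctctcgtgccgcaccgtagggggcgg
JUN: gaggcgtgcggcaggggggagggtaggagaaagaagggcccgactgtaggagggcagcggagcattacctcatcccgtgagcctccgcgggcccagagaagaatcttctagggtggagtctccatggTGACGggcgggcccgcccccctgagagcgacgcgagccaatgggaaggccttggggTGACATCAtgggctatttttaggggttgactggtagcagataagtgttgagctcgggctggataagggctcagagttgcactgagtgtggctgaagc
JUND: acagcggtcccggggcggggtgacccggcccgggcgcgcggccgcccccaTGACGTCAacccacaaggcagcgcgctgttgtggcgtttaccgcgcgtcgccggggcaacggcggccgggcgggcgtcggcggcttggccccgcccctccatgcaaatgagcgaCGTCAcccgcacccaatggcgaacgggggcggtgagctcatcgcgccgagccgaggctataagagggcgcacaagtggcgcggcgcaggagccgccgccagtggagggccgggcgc

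The half-site TGACG was in 7 of the 7 promoters, against 24.6% of 35116 RefSeq promoters of the same length. The 7 promoters held 62% to 77% G and C, and the promoters set beside them were not matched for this. The half-site is part of TGACGTCA, so that JUND's full element counts for both. In FOS the half-site began 64 bases before the start and a TATA box 33 bases before it. JUNB also held a TATA box, 31 bases before its start, while 11.5% of all promoters hold one. IER2 had a half-site 140 bases before its start. JUN had a half-site 123 bases before the start and TGACATCA, a match to TGACNTCA, 67 bases before it. JUND had TGACGTCA 200 bases before its start and another half-site 86 bases before it. TGACNTCA is found in 7.72% and TGACGTCA in 1.85% of all promoters. FOSL2 held TGANTCA 4 bases past its RefSeq start, a motif of 7.71% of promoters. EGR1 had CArG boxes 105 and 83 bases before its start, against 1.29% of promoters with one, and GCGNGGGCG 198 bases before it, against 9.43%. CACGTG was in none of the 7 promoters and in 7.26% of all. The genes that rose and those that fell thus both carried the half-site, and the matches are descriptions of the letters, not of binding.

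**Figure D1:**
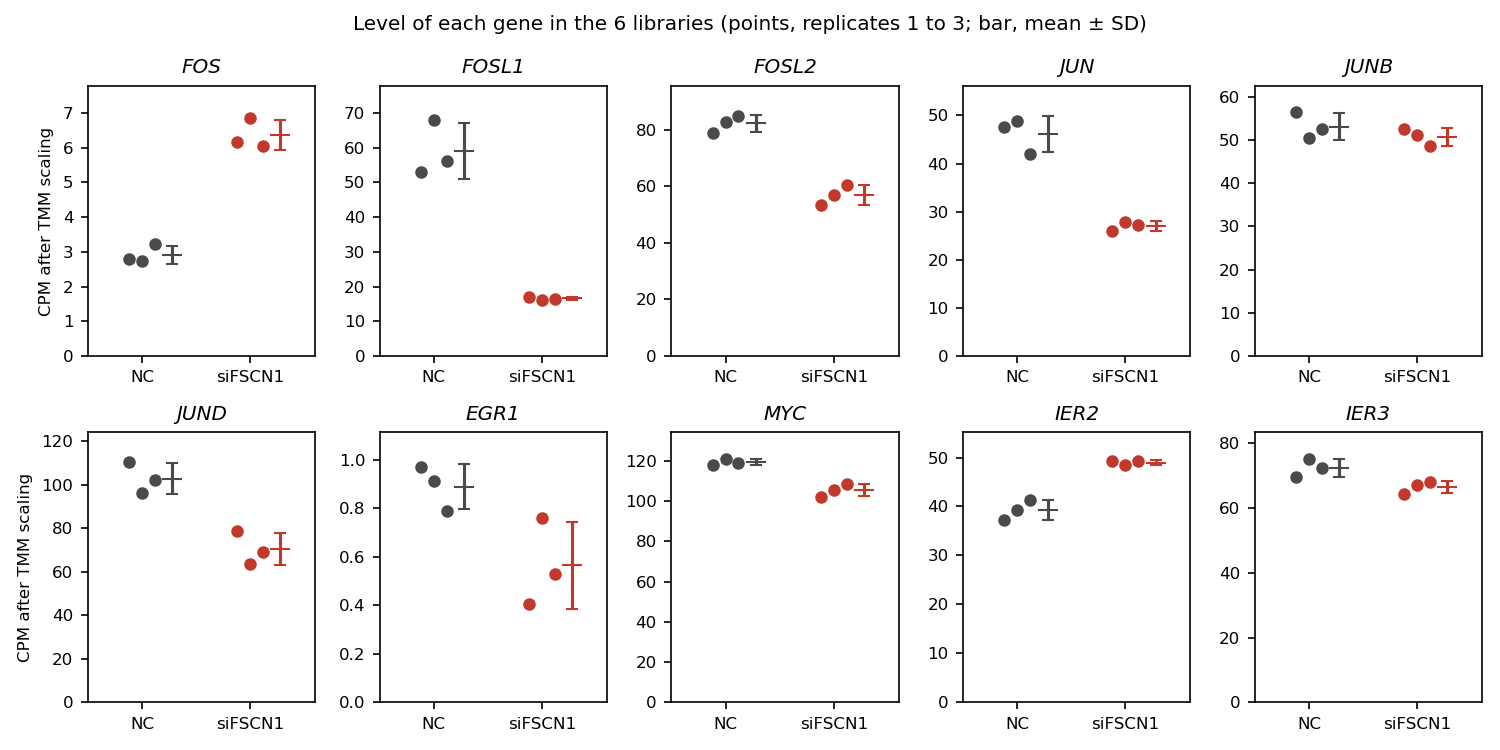
Level of each of the 10 genes in CPM after TMM scaling (vertical axes from 0, a different range for each gene) in the 3 NC and 3 siFSCN1 libraries. Points are replicates 1 to 3 from left to right and bars the mean ± SD. The groups lie apart for FOSL1, JUN, FOSL2, JUND, FOS and IER2, come close for MYC, EGR1 and IER3, and overlap for JUNB.

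FOS (ENSG00000170345, chr14:75278826-75282230 on GRCh38), the founding member of the FOS family and a short-lived partner of JUN, stood at 2.80, 2.73 and 3.21 CPM in NC replicates 1 to 3. In siFSCN1 it stood at 6.16, 6.86 and 6.06 CPM. The lowest siFSCN1 library was well above the highest NC library, on counts of 72 to 110 in NC and 206 to 226 in siFSCN1. The mean went from 2.92 CPM ± 0.259 to 6.36 CPM ± 0.436 (SD, n = 3 each), a log2 fold change of 1.12 (standard error, SE, 0.126) with an edgeR adjusted p of 3.14e-07. A rise of this size was not rare, as 1658 genes tested (9.71%) rose by more, and the median log2 fold change of the genes of like abundance (FOS's bin of 20 equal bins) was 0.24. With limma on log2(FPKM + 1), where the added 1 shrinks changes of low genes, the difference was 0.69, so that FOS was no longer called 2-fold.

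FOSL1 (ENSG00000175592, chr11:65892049-65900573), which codes for the FOS-related protein FRA-1 of proliferating and invasive epithelial cells, had the largest change of the 10 genes. Its levels were 52.9, 68.1 and 56.1 CPM in NC and 16.9, 16.2 and 16.5 CPM in siFSCN1. Replicate 2 was the highest of NC, the siFSCN1 libraries were nearly level, and the groups were far apart. The means were 59.1 CPM ± 8.01 and 16.6 CPM ± 0.356 (SD, n = 3 each), a log2 fold change of -1.83 (SE 0.0770) with an edgeR adjusted p of 4.41e-13. Only 113 genes tested (0.662%) fell by more, and genes of like abundance had a median log2 fold change of -0.13.

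FOSL2 (ENSG00000075426, chr2:28392448-28417317), the gene of FRA-2, had 79.0, 82.9 and 84.9 CPM in NC and 53.3, 56.8 and 60.7 CPM in siFSCN1. All siFSCN1 libraries were below all NC libraries. The means of 82.3 CPM ± 2.98 and 56.9 CPM ± 3.66 (SD, n = 3 each) gave a log2 fold change of -0.53 (SE 0.0529) with an edgeR adjusted p of 5.99e-08, where genes of like abundance had a median of -0.18.

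FOSB, the fourth FOS gene, is not one of the 10 and was barely expressed. Its counts were 2, 9 and 10 in NC and 24, 10 and 22 in siFSCN1, and the groups overlapped. The log2 fold change was 1.22 (SE 0.485) with an edgeR adjusted p of 0.0331, and the call was lost under 6 of 14 alternatives, among them DESeq2 (adjusted p = 0.113).

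Among the JUN genes, JUN (ENSG00000177606, chr1:58776845-58784048), the partner of FOS and target of JNK, had 47.6, 48.8 and 41.9 CPM in NC and 25.9, 27.8 and 27.2 CPM in siFSCN1. The lowest NC library, replicate 3, was still far above the siFSCN1 libraries. The mean fell from 46.1 CPM ± 3.70 to 26.99 CPM ± 0.991 (SD, n = 3 each), a log2 fold change of -0.77 (SE 0.0606) with an edgeR adjusted p of 2.46e-09. Genes of like abundance had a median of -0.13.

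JUND (ENSG00000130522, chr19:18279694-18281622), the JUN gene with the steadiest expression in resting cells, had 110.5, 96.1 and 102 CPM in NC and 78.6, 63.8 and 69.3 CPM in siFSCN1. Replicate 1 was the highest of each group, and the groups did not overlap. The mean went from 103 CPM ± 7.22 to 70.6 CPM ± 7.499 (SD, n = 3 each), a log2 fold change of -0.54 (SE 0.0651) with an edgeR adjusted p of 6.65e-07. Genes of like abundance had a median of -0.18.

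JUNB (ENSG00000171223, chr19:12791486-12793315), a JUN protein that often opposes JUN in proliferation, had 56.5, 50.4 and 52.5 CPM in NC and 52.7, 51.2 and 48.6 CPM in siFSCN1. The groups overlapped. The log2 fold change was -0.064 (SE 0.0546) with a 95% interval of -0.18 to 0.051 and an edgeR adjusted p of 0.309. Its sign turned with the scaling, to 0.054 with upper quartile scaling and to 0.12 with library totals, the latter with an edgeR adjusted p of 0.0472. HOOK2, on the opposite strand, covers all 1830 bases of JUNB, and it had 167 to 257 counts in NC and 458 to 496 in siFSCN1, beside 1327 to 1813 for JUNB. The strand setting of the counting was not given in the sources used here, and the part of HOOK2 reads in the JUNB counts was not tested.

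EGR1 (ENSG00000120738, chr5:138465479-138469303), a zinc finger factor induced through SRF and ERK, was close to the limit of detection. Its counts were 28, 24 and 27 in NC and 14, 25 and 18 in siFSCN1, or 0.969, 0.912 and 0.789 CPM against 0.407, 0.759 and 0.530 CPM. The siFSCN1 libraries were all below the NC libraries, replicate 2 by little. The log2 fold change was -0.65 (SE 0.312) with an edgeR adjusted p of 0.0737 and a 95% interval from -1.31 to 0.0073, so a difference was not resolved at this depth. Without siFSCN1 replicate 2 the log2 fold change was -0.92 with an edgeR adjusted p of 0.0362.

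MYC (ENSG00000136997, chromosome 8), the growth-promoting factor that dimerises with MAX, had 118, 121 and 119 CPM in NC and 102, 105 and 108 CPM in siFSCN1. The groups were close but did not overlap. The mean went from 119 CPM ± 1.53 to 105 CPM ± 3.16 (SD, n = 3 each), a log2 fold change of -0.18 (SE 0.0413) with an edgeR adjusted p of 0.000915, smaller in size than the median of -0.24 of genes of like abundance. With library totals in place of TMM the value was 0.0090 with an edgeR adjusted p of 0.864.

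IER2 (ENSG00000160888, chr19:13150411-13154911), a nuclear protein of the early growth response, had 37.3, 39.2 and 41.3 CPM in NC. In siFSCN1 it had 49.2, 48.4 and 49.3 CPM. Every siFSCN1 library was above every NC library. The mean rose from 39.3 CPM ± 2.03 to 49.0 CPM ± 0.503 (SD, n = 3 each), a log2 fold change of 0.32 (SE 0.0522) with an edgeR adjusted p of 3.02e-05, where genes of like abundance had a median of -0.13. When tested against a fold change of 1.2 rather than against none, IER2 was not called, and FOS was.

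IER3 (ENSG00000137331, chr6:30743199-30744548), a stress-induced regulator of survival, had 69.5, 75.0 and 72.4 CPM in NC and 64.3, 66.9 and 67.9 CPM in siFSCN1. The highest siFSCN1 library was just under the lowest NC library. The log2 fold change was -0.12 (SE 0.0480) with an edgeR adjusted p of 0.0296. Genes of like abundance had a median of -0.18, larger in size. With library totals the value of IER3 turned to 0.064 (edgeR adjusted p = 0.269).

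**Figure D2:**
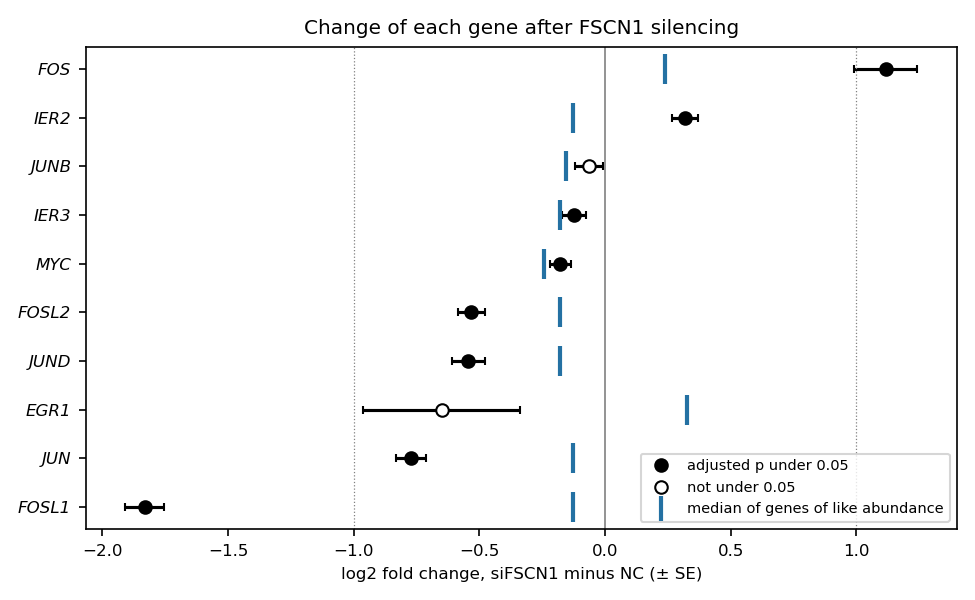
Log2 fold change, siFSCN1 minus NC, of each of the 10 genes (points, bars ± SE, filled where the edgeR adjusted p was under 0.05) beside the median of the genes of like abundance (blue ticks). Dotted lines mark 2-fold changes, passed by FOS at 1.12 and FOSL1 at -1.83. Signs of JUNB, MYC and IER3 turn under other scalings.

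Under upper quartile scaling the median log2 fold change of all genes was higher by 0.12 than under TMM, and under library totals by 0.19. The directions of FOS, FOSL1, FOSL2, JUN, JUND, EGR1 and IER2 held under each alternative run. Over 13 alternatives on counts FOS ran from 1.05 to 1.30 and FOSL1 from -1.91 to -1.65, FOSL2 from -0.59 to -0.34, JUN from -0.85 to -0.58 and JUND from -0.64 to -0.36.

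**Figure D3:**
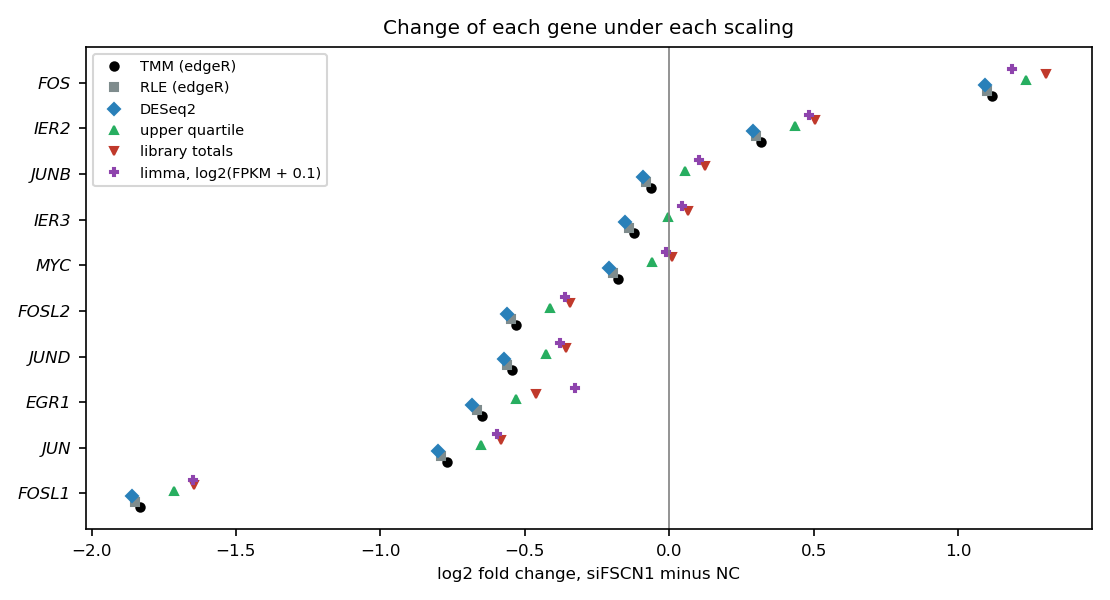
Log2 fold change, siFSCN1 minus NC, of each of the 10 genes with 3 edgeR scalings beside TMM, with DESeq2 and with limma on log2(FPKM + 0.1). Upper quartile, library totals and FPKM lie to the right of TMM, which moves JUNB across 0 in all 3, IER3 with library totals and FPKM and MYC with library totals, and leaves the other genes on their side.

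Between genes, levels were compared in FPKM, which divides by a length for each gene. The lengths behind the deposited FPKM were not checked here, and the order, shares and ratios between genes depend on them. In NC the order of mean FPKM was IER3 at 42.6 ± 1.88, JUND at 42.4 ± 2.74, FOSL1 at 24.9 ± 3.42, JUNB at 23.1 ± 1.201, MYC at 20.7 ± 0.387, IER2 at 10.1 ± 0.615, JUN at 10.1 ± 0.748, FOSL2 at 9.13 ± 0.416, FOS at 0.727 ± 0.0723 and EGR1 at 0.223 ± 0.0208 (SD, n = 3 each). The ranges of IER3 and JUND overlapped, as did those of FOSL1 and JUNB, of IER2 and JUN and of JUN and FOSL2. In siFSCN1 FOSL1 came sixth, at 7.83 FPKM ± 0.273, below JUNB at 24.8 ± 1.21, MYC at 20.5 ± 0.491 and IER2 at 14.2 ± 0.314. FOSL2 at 7.08 FPKM ± 0.405 and JUN at 6.64 FPKM ± 0.159 were then the only neighbours whose ranges overlapped. FOS, at 1.78 FPKM ± 0.108, and EGR1, at 0.160 FPKM ± 0.0458, stayed the lowest of the 10 genes.

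The members of the FOS family compete for JUN partners. Their summed FPKM (FOS, FOSB, FOSL1 and FOSL2) was 31.5, 38.6 and 34.2 in NC and 16.7, 16.5 and 17.1 in siFSCN1. The groups did not overlap, and the mean sum in siFSCN1 was 0.483 of that in NC. FOSL1 made up 71.4% ± 2.502 of the sum in NC and 46.7% ± 1.66 in siFSCN1 (SD, n = 3 each). The share of FOSL2 was 26.4% ± 2.22 and then 42.2% ± 1.86 although its own level was lower, and that of FOS 2.11% ± 0.313 and then 10.6% ± 0.823. The ratio of FOSL1 to FOS went from 34.6 ± 6.75 to 4.41 ± 0.366.

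The summed FPKM of the JUN family (JUN, JUNB and JUND) was 79.7, 72.2 and 74.7 in NC and 69.4, 60.5 and 62.3 in siFSCN1, a mean ratio of 0.848 with no overlap. JUND held 56.1% ± 1.07 of the sum in NC and 50.9% ± 2.56 in siFSCN1, JUNB 30.5% ± 0.239 and 38.7% ± 1.73, and JUN 13.4% ± 1.27 and 10.4% ± 0.974 (SD, n = 3 each). JUN-family FPKM per FOS-family FPKM went from 2.20 ± 0.332 to 3.82 ± 0.285. For each family sum, share and ratio the exact two-sided permutation test gave p = 0.1, the smallest that 3 against 3 libraries allow. Shares and ratios within a library do not depend on its scaling, whereas the sums do.

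**Figure D4:**
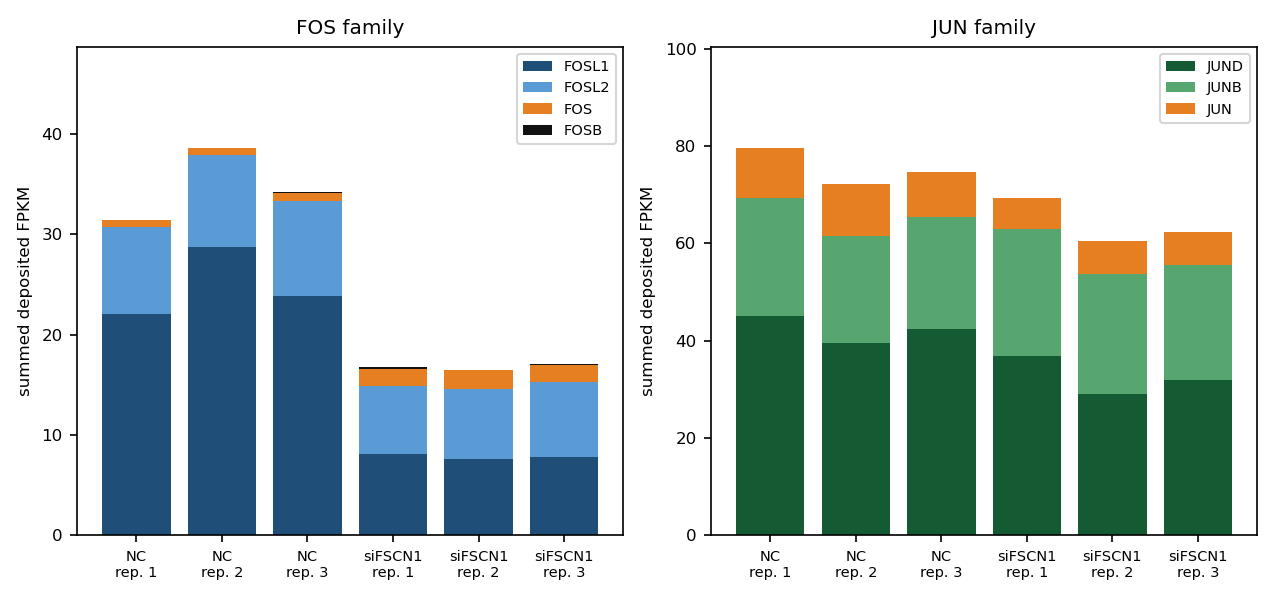
Summed deposited FPKM of the FOS family (left) and JUN family (right) in each of the 6 libraries, stacked by gene. The FOS-family bars are 31.5 to 38.6 high in NC and 16.5 to 17.1 in siFSCN1, with FOSL1 (dark blue) the layer with the largest difference, and the JUN-family bars are 72.2 to 79.7 and 60.5 to 69.4.

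The spread between replicates, as the SD of log2 CPM, had a median of 0.0967 over all genes in NC and of 0.0964 in siFSCN1. Of the 10 genes, 5 were above it in NC and 2 in siFSCN1. In NC this spread was smaller for more abundant genes, with medians of 0.334 at EGR1's abundance and 0.0379 at MYC's. Against genes of like abundance FOSL1, FOSL2, JUN, JUNB, JUND, IER2 and IER3 were above the median in NC. In siFSCN1 FOSL2, JUNB, JUND and EGR1 were above theirs. FOSL1 varied more in NC, at 0.190, than in siFSCN1, at 0.0308, where genes of like abundance had medians of 0.0558 and 0.0600. MYC was steady at 0.0185 and 0.0433, and EGR1, on its few counts, had 0.142 and 0.405. No library was the highest of its group for all 10 genes, since each NC library was highest for 3 or 4 of them and likewise each siFSCN1 library.

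The genes share a compact structure that the choice by symbol did not use. In GENCODE annotation all 10 have at most 4 exons, as do 20.4% of 13587 protein-coding genes tested, whose median is 9. JUN, JUNB and JUND have 1 exon, as do 2.12% of these genes. The AU-rich pentamer ATTTA, known to speed mRNA decay, is in the 3′ UTR of 9 of the 10 genes, against 71.9% of all with a 3′ UTR. IER3 has 8.11 and FOS 6.18 per kilobase of 3′ UTR, where the median gene has 1.63, and IER2 has none. FOSL1 at 1.19, JUND at 1.33 and EGR1 at 0.816 are also below the median gene. FOSL2, JUN, MYC and JUNB lie above it, from 1.85 to 3.98. The longer element TTATTTATT is in the 3′ UTR of FOS and FOSL2 and in 9.14% of all 3′ UTRs. FOS and IER2, the 2 genes that rose, thus lie far apart on this measure. The 7 long noncoding RNA genes that overlap FOSL2, MYC, IER2 or IER3 had at most 123 counts per library, beside at least 1032 for these 4 genes.

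**Figure D5:**
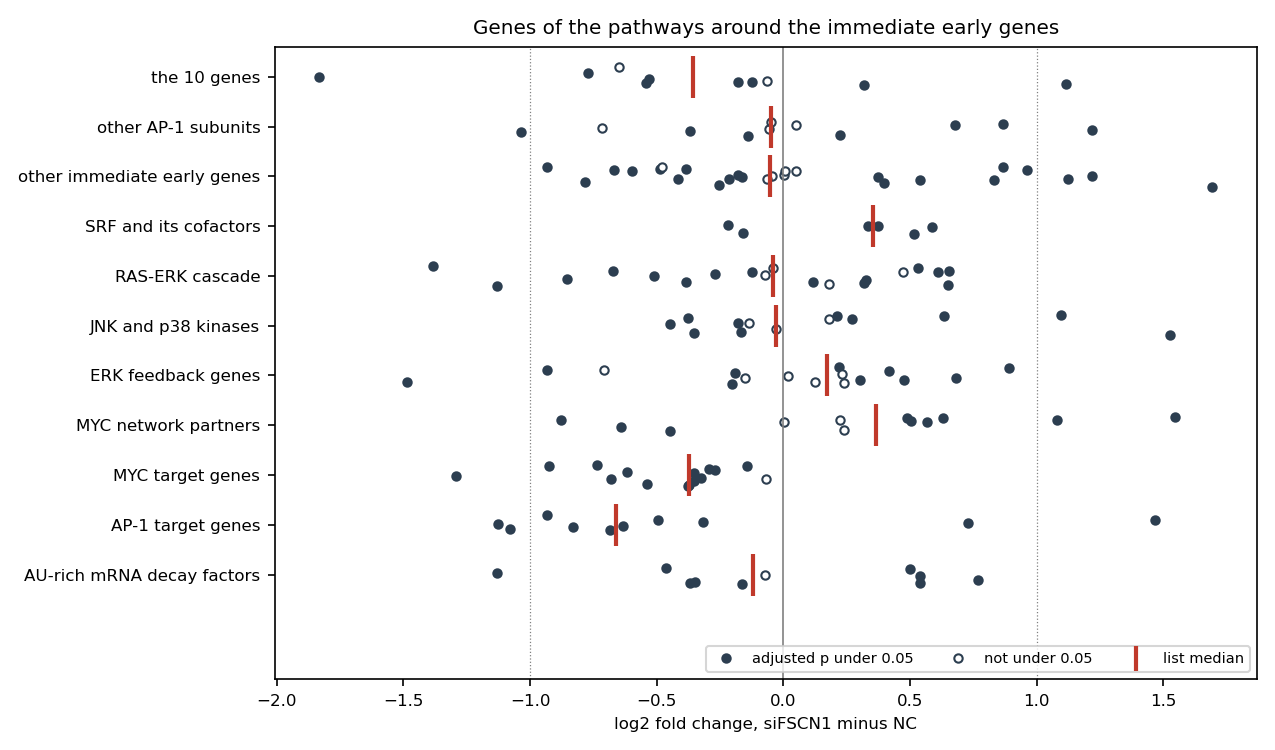
Log2 fold change, siFSCN1 minus NC, of each tested gene in the 10 gene lists below the 10 genes (points, spread vertically only for legibility, filled where the edgeR adjusted p was under 0.05) with the median of each list in red. Dotted lines mark 2-fold changes. The medians run from -0.66 for AP-1 target genes to 0.36 for genes of the network around MYC, MAX and MLX (MYC network partners). Those between -0.12 and -0.028 turn positive with library totals.

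Of 11 other AP-1 subunits tested, 4 were higher and 3 lower, with a median of -0.050 (6 and 2, with a median of 0.14, with library totals). Of all genes 35.1% were higher and 33.2% lower, and neither these counts nor those of the other immediate early genes or of the ERK, JNK and p38 cascades set the lists apart. ATF3, a stress-induced partner of JUN, had 4.91, 4.10 and 4.47 CPM in NC and 7.88, 7.96 and 8.80 CPM in siFSCN1, without overlap, a log2 fold change of 0.87 (SE 0.117) with an edgeR adjusted p of 3.1e-06. ATF7 rose by 0.68 and JDP2, a repressor of AP-1, by 0.22 on the log2 scale, and FOSB has been described. BATF2 fell by 1.04, ATF2, the partner of JUN on CRE sites, by 0.37 and MAFK by 0.14 on the log2 scale. Fold changes of list genes under 2-fold are given for genes chosen after their values were seen, and the falls of MAFK, ELK3, MAP2K3, MAPK9 and ZFP36 turn to values between 0 and 0.048 with library totals and lose their calls there and with upper quartile scaling.

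Of 26 other immediate early genes tested, 9 were higher and 11 lower, with a median of -0.054. The balance turned with the scaling, to 11 higher and 8 lower with upper quartile scaling and to 11 higher and 7 lower, with a median of 0.13, with library totals. KLF2, a Krüppel-like factor, had 5.29, 4.22 and 4.99 CPM in NC and 15.6, 15.4 and 16.01 CPM in siFSCN1, a log2 fold change of 1.69 (SE 0.110) with an edgeR adjusted p of 1.8e-10. The nuclear receptor gene NR4A2 rose by 1.12 and RHOB, a small GTPase of the actin cytoskeleton, by 0.96, on the log2 scale. CCN2 rose by 0.83 while CCN1, its relative, had -0.21, a call lost with upper quartile scaling and library totals. The largest falls were those of TIPARP at -0.93, NFKBIA, the inhibitor of NF-kappaB, at -0.78 and IER5 at -0.67. DUSP1, the phosphatase that turns MAP kinases off, fell by 0.25, a call lost with library totals. MCL1 had a log2 fold change of 0.0018 and NR4A1 of -0.064, neither past the test. EGR2, EGR3 and NR4A3 were too low to be tested.

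Upstream of these promoters, 6 of 7 genes of SRF and its cofactors were tested. SRF rose by 0.33, its actin-sensing cofactors MRTFA and MRTFB by 0.51 and 0.59, and ELK4 by 0.37, on the log2 scale, each with all siFSCN1 libraries above all NC libraries. ELK1 fell by 0.22 and ELK3 by 0.16 under TMM, neither passed under upper quartile scaling or library totals, and without NC replicate 2 only 1 of the genes was lower. The list median was 0.35.

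In the cascade from receptor to ERK, 7 of 19 genes were higher and 8 lower, with a median of -0.043 (9 and 6, with a median of 0.14, with library totals). The kinase genes ARAF at -1.38 (SE 0.0577) and MAP2K2, which codes for MEK2, at -1.13 (SE 0.0446) passed 2-fold, with edgeR adjusted p-values of 4e-13 and 2e-13. ARAF had 75.3, 71.8 and 73.7 CPM in NC and 30.8, 26.6 and 27.3 CPM in siFSCN1. MAPK3, the gene of ERK1, fell by 0.85 and MAP2K1, of MEK1, by 0.67. EGFR and BRAF each rose by 0.65. Both MEK genes were thus lower.

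Of 13 genes of the JNK and p38 kinases, 5 were higher and 5 lower, with a median of -0.028 (7 and 3, with a median of 0.16, with library totals). Without siFSCN1 replicate 1 only 2 were higher and without siFSCN1 replicate 2 only 3. MAP2K4, a kinase of JNK, fell by 0.38, MAP3K1 by 0.45, MAP2K6 by 0.35, MAPK9 by 0.18 and MAP2K3 by 0.17. MAP3K5 rose by 0.63, MAPK11 by 0.27 (a call lost with RLE scaling) and MAP2K7 by 0.21. MAPK10 at 1.10 and MAPK13 at 1.53 passed 2-fold at mean levels of at most 0.06 FPKM. MAPK8, the gene of JNK1, had -0.14 with an edgeR adjusted p of 0.16.

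Genes that ERK activity is known to raise, several of which damp it in turn, were 6 higher and 4 lower of 16, with a median of 0.17, where 35.1% of all genes were higher and 33.2% lower. With upper quartile scaling or library totals 9 were higher and 2 lower. DUSP5, a nuclear ERK phosphatase, had 66.7, 62.7 and 61.2 CPM in NC and 113, 123 and 118 CPM in siFSCN1, a log2 fold change of 0.89 (SE 0.0486) with an edgeR adjusted p of 1.6e-11. ETV4 rose by 0.68, while DUSP6 at -0.15 did not pass (edgeR adjusted p = 0.23). The receptor gene EPHA2 had 135, 152 and 138 CPM in NC and 50.9, 50.7 and 50.2 CPM in siFSCN1, a log2 fold change of -1.49 (SE 0.0491) with an edgeR adjusted p of 2.2e-14. CCND1, the gene of cyclin D1 and also among the AP-1 targets, fell by 0.93. DUSP4 at -0.20 and ETV5 at -0.19 passed under TMM but not with upper quartile scaling or library totals.

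Of 12 genes of the network around MYC, MAX and MLX, 6 were higher and 3 lower, with a median of 0.36. Of all genes tested 35.1% were higher and 33.2% lower. MAX itself, at 0.0020 with an edgeR adjusted p of 0.97, did not pass. The glucose-sensing factor genes MLXIP and MLXIPL rose by 1.08 and 1.55 while MLX, their partner, fell by 0.64. The MAX-binding repressor genes MNT, MXI1, MXD4 and MGA rose by 0.49 to 0.63, while MXD1 fell by 0.88 and MXD3 by 0.45. Among MYC target genes 14 of 15 were lower and 0 higher, where 33.2% of all genes were lower, with a median of -0.37. CDK4, which the study picked from these libraries, had 238, 241 and 242 CPM in NC and 106, 96.7 and 92.1 CPM in siFSCN1, a log2 fold change of -1.29 (SE 0.0457) with an edgeR adjusted p of 5.1e-14. LDHA, of lactate production, fell by 0.92 and the nucleolar genes NCL and NPM1 by 0.74 and 0.68. CAD, of pyrimidine synthesis, had -0.070 and did not pass. With upper quartile scaling 12 of the MYC targets were lower, and with library totals 10 were lower and 1 higher. Beside this, genes of MYC's own abundance had a median of -0.24. The targets tested ranged in NC from TERT at 3.98 to 4.48 CPM to LDHA at 3294 to 3367 CPM. They were not compared with genes of like abundance.

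Of 15 AP-1 target genes 10 were tested, of which 8 were lower and 2 higher, where 33.2% of all genes were lower and 35.1% higher. The median was -0.66, and the same counts were found with RLE scaling, upper quartile scaling and library totals. PLAUR, the receptor of urokinase, had 35.1, 40.8 and 33.8 CPM in NC and 17.9, 16.8 and 15.4 CPM in siFSCN1, a log2 fold change of -1.13 (SE 0.0712) with an edgeR adjusted p of 1.2e-10. HMGA1, a chromatin protein of transformed cells, had 816, 882 and 831 CPM in NC and 409, 393 and 394 CPM in siFSCN1, a log2 fold change of -1.08 (SE 0.0391) with an edgeR adjusted p of 6.5e-14. PLAU, which codes for urokinase, fell by 0.83 and CD44 by 0.63. CXCL8, the chemokine interleukin-8, rose by 1.47 and VEGFA by 0.73. MMP1, MMP3, MMP9, MMP13 and IL6 were too low to be tested, with at most 17 counts in a library.

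NAB1, a corepressor that binds EGR1, rose by 0.78, and NAB2, itself an EGR1 target, had -0.21 with an edgeR adjusted p of 0.083. Of 10 genes for proteins that bind AU-rich mRNA or deadenylate it, 4 were higher and 5 lower, with a median of -0.12. With library totals 5 were higher and 4 lower, with a median of 0.068. Under the main scaling 35.1% of all genes tested were higher and 33.2% lower. KHSRP, which recruits decay enzymes, had 174, 171 and 161 CPM in NC and 80.7, 72.6 and 78.1 CPM in siFSCN1, a log2 fold change of -1.13 (SE 0.0471) with an edgeR adjusted p of 4e-13. ZFP36L1 rose by 0.77, BTG2 and TIA1 by 0.54 and BTG1 by 0.50, and ZFP36, the gene of tristetraprolin, fell by 0.16 and ZFP36L2 by 0.46. HNRNPD fell by 0.37 and ELAVL1, which stabilises such mRNAs, by 0.35.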

How the data were processed

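RNA sequencing of A549 cells gave 6 libraries, 3 NC and 3 siFSCN1, grouped by sample title. The authors deposited raw counts per gene for 30230 genes and FPKM (fragments scaled by length and depth) for 29899 of them. The authors trimmed reads and counted unique alignments to GRCh38. The study's methods name HISAT2 and the submitters' processing notes TopHat2 and bcl2fastq. The counting program and strand setting were not given in the sources used here. An Ensembl annotation release is named in the study's methods for its binding peaks and not for these gene counts. The labels and the study's methods each describe a stranded kit, but not the same one. Depth was 27967301 to 36560919 counts per library, and the common biological coefficient of variation was 5.94%.

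Genes kept by filterByExpr (17076) were scaled by TMM. The quasi-likelihood test of edgeR 4.0.16 (in R 4.3.3) then compared the groups without covariates, where the authors used DESeq2. A gene passed at a Benjamini-Hochberg adjusted p under 0.05, and 2-fold calls needed a fold change of at least 2 as well. Log2 CPM used a prior count of 2, and 95% intervals the t distribution with each gene's total degrees of freedom. Family sums and shares were compared by exact permutation tests of deposited FPKM. The statistics were first tested on simulated data, in which as many genes were raised as lowered at a common dispersion. Such data cannot test how the results depend on scaling when changes are uneven.

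The members, gene lists and tests were chosen with earlier results of these data known. The genes named were the 10 members, FSCN1, FOSB, ATF3 and, for each list, up to 3 largest 2-fold changes in each direction with a mean of at least 1 FPKM in a group. Other genes were named after their values were seen. Positions, exons and UTRs came from GENCODE v44 (GRCh38), matched by Ensembl identifier without version, and promoters from RefSeq (GRCh38.p14). The alternatives were RLE and upper quartile scaling, library totals, DESeq2 1.42.0, no filter beyond 1 count, a stricter filter of 1 CPM in 3 libraries, a fit blocked on the replicate number, fits without each library in turn, limma 3.58.1 on log2(FPKM + 0.1) and log2(FPKM + 1), and glmTreat at 1.2-fold. Sums and shares were also taken from FPKM rescaled to the same sum in each library or divided by the TMM factor.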

Additional observations from a re-analysis of the deposited data

How the results depend on the processing

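Scaling mattered most for genes near 0. The log2 fold change of JUNB turned to 0.054 with upper quartile scaling, 0.12 with library totals, 0.10 with limma after adding 0.1 to the FPKM and 0.099 after adding 1. That of IER3 turned to 0.064 with library totals and to 0.0425 and 0.0417 in the limma fits, and that of MYC to 0.0090 with library totals. IER3 also lost its call without NC replicate 2 (edgeR adjusted p = 0.0927), NC replicate 3 (0.0575) or siFSCN1 replicate 1 (0.051), with upper quartile scaling (0.925) and with the stricter filter (0.0907), and MYC with upper quartile scaling (0.206) and in both limma fits, where 4 of the 10 genes were lower. With upper quartile scaling 2 of the 10 genes were higher and 4 lower, and with library totals 3 and 4. Tested against a 1.2-fold change, 1 of the 10 genes was higher in place of 2 and 4 were lower in place of 6, and on log2(FPKM + 1) 0 were 2-fold higher. Division of FPKM by the TMM factor gave ratios of 0.424 for the FOS-family sum and 0.745 for the JUN-family sum. Without any one library 2 of the 10 genes were higher and 5 to 7 lower. Over the alternatives on whole lists, AP-1 target genes were 8 to 9 lower and 2 higher, MYC target genes 10 to 14 lower, ERK feedback genes 5 to 9 higher and 2 to 5 lower, and JNK and p38 kinase genes 2 to 7 higher and 2 to 6 lower. The cause of the other shifts was not tested. Replicate numbers did not pair the libraries, as deviations from the group means of same-numbered libraries correlated at -0.03, 0.04 and -0.08. With the replicate block 2 of the 10 genes were higher and 6 lower, as without it, FOSL1 had -1.83, and FOSB lost its call (edgeR adjusted p = 0.0528). EGR1 and FOSB did not enter the test under the stricter filter. Depth limits EGR1 and FOSB, with 28 counts or fewer per library.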
